A study of Mus musculus with 2 samples.

Results

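The genes of the matrix metalloproteinases (Mmp), of the ADAMTS proteases and the ADAMTS-like proteins (Adamts, Adamtsl) and of the tissue inhibitors of metalloproteinases (Timp) were examined in brain endothelium. They were taken by symbol, as every gene whose single annotated symbol starts with Mmp, Adamts, Adamtsl or Timp and a digit, with *Adamts13* left out. This gave 42 of the 18194 genes on the array, with 78 of its 45101 probe sets. They are 18 Mmp, 15 Adamts, 5 Adamtsl and 4 Timp genes. Endothelial cells were sorted by FACS from the normal brain vasculature of C57BL/6 mice, as a CD31+ Prom1+ (CD31+CD133+) and a CD31+ Prom1- (CD31+CD133-) population. The RNA of each was hybridized to 1 Affymetrix mouse array. The sources used here do not give the age of the mice or how many were pooled for an array.

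Matrix metalloproteinases are zinc enzymes that cut collagens, laminins, proteoglycans and many surface proteins. Most are secreted as inactive precursors, and the membrane-type members stay anchored to the cell. ADAMTS proteases cut proteoglycans such as versican and aggrecan, process procollagens, or act near fibrillin microfibrils, and the ADAMTS-like proteins share their accessory domains but lack the catalytic one. The TIMPs block these enzymes by filling the active site. In brain vessels this system turns over the basement membrane shared by endothelium and pericytes, and its excess is known for opening the blood-brain barrier.

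A signal is given as multiples of the median of its own array. Signals under a floor of 1.67 times the median were set to the floor for ratios. Where 1 of the signals was under the floor the fold is a lower bound, and where both were under it there is no fold. A log2 ratio is that of the Prom1+ over the Prom1- array. Since each population had a single array, replicate error is unknown, differences have no replicate check and p-values were not computed. Part of the technical error within this pair of arrays can be gauged from genes with several probe sets above the floor on both. The log2 ratios of such probe sets had an SD of 0.54 around their gene over 3930 genes. Error shared by all probe sets of an array is not part of this SD. The transcript of the sort marker, *Prom1*, had 159 times the median in the sample labelled Prom1+, against 196 times in that labelled Prom1-, and so was not higher where the label places it. The sort was made on the surface protein and the array measures the transcript. The arrays are named by their labels throughout.

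The *Mmp*, *Adamts* and *Timp* genes formed a group above the floor and a larger one under it. Of the 42 genes, 11 were above the floor on both arrays, 3 only in the array labelled Prom1+, 2 only in the array labelled Prom1-, and 26 on neither. Over all genes, 9360 of 18194 were above the floor on both arrays. The other groups were not counted over all genes. Those on neither include 9 *Mmp* genes that are neighbors on chromosome 9, between *Dcun1d5* and *Tmem123*, in the order *Mmp13*, *Mmp12*, *Mmp1b*, *Mmp3*, *Mmp1a*, *Mmp10*, *Mmp8*, *Mmp20* and *Mmp7*. They were grouped by position after their values were seen. *Mmp27*, which lies between *Mmp8* and *Mmp20*, is not analysed here. Promoters of 27 of the 42 genes were found in a RefSeq table of the GRCm38.p6 assembly, and the 250 bases before the start of each were searched on both strands for 5 motifs. The motif of AP-1, the Fos and Jun factor known to induce many *Mmp* genes, was searched as TGANTCA. The TATA box, where the start of transcription is set, was searched as TATAAA. The GC box, which Sp1 binds and which is common in promoters of widely used genes, was searched as GGGCGG. The core of ETS factors, which many endothelial genes carry, was searched only in the form CCGGAA. An NF-kB motif was searched as well, and no overlap between motifs was removed. The first listed start stood for a gene. The sequences of *Adamtsl4* and *Adamts9*, which were above the floor on both arrays, and of *Mmp3* and *Mmp10* from the cluster are shown 5′ to 3′ to set both kinds side by side, with the motifs found in capitals. They lie at chr3:95687918-95688167 (minus strand), chr6:92943535-92943784 (minus strand), chr9:7445572-7445821 (plus strand) and chr9:7502092-7502341 (plus strand) of GRCm38.p6.
Adamtsl4: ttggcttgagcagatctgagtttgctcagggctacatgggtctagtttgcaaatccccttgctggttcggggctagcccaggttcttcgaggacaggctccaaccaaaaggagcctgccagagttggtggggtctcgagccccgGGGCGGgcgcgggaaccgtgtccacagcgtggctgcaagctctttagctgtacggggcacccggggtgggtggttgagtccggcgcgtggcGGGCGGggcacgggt
Adamts9: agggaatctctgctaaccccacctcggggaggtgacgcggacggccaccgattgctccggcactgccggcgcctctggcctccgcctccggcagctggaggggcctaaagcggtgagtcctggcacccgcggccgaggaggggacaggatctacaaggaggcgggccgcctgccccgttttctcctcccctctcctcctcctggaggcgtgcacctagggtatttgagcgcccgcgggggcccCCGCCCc
Mmp3: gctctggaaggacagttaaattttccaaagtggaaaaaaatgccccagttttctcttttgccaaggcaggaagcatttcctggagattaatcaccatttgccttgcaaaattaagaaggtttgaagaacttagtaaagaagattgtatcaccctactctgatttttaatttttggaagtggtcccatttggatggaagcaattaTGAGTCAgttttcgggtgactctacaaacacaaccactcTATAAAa
Mmp10: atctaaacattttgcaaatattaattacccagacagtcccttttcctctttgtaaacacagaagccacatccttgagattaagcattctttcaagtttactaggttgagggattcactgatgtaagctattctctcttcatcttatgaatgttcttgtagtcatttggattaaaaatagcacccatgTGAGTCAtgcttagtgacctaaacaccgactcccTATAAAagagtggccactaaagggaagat

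An AP-1 motif was found in 7 of the 9 promoters of the cluster, and a TATA box also in 7, while none of the 9 held a GC box. In *Mmp3* the AP-1 motif begins 46 bases before the start, and in *Mmp10* 63 bases before it. A TATA box follows each, beginning 7 bases before the start in *Mmp3* and 29 bases before it in *Mmp10*. These distances depend on the start that the table lists. The GC box of *Adamts9* is on the opposite strand and is printed as its complement. Of all 27025 genes in the table, 6.87% hold the AP-1 motif, 13.0% the TATA box and 32.9% the GC box in the same window. Promoters of the 8 genes that were above the floor on at least 1 array and could be matched, *Adamts1*, *Adamts9*, *Adamtsl2*, *Adamtsl4*, *Mmp11*, *Mmp24*, *Timp2* and *Timp3*, all held a GC box. The other genes above it, *Adamts4*, *Adamts10*, *Adamts15*, *Adamts19*, *Adamtsl1*, *Mmp16*, *Mmp17* and *Mmp19*, had no promoter in the table and could not be searched. None of the 8 held the AP-1 motif, which too few promoters hold for 8 to show a lack of it, and 2 held a TATA box. A GC box was also found in 7 of the 19 promoters of genes under the floor on both arrays, none of them in the cluster, among them *Mmp14* and *Timp1*. None of the 27 promoters held CCGGAA or the NF-kB motif, which 12.2% and 1.17% of all genes hold. Other forms of the ETS core were not searched, so a lack of ETS cores is not shown. These are matches of letters in a window and not sites of binding, and genes of 1 cluster share ancestry.

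The inhibitors were represented by *Timp3* and *Timp2*. *Timp3* encodes the inhibitor that binds to the extracellular matrix and also blocks ADAM17 and several ADAMTS proteases. It had 103 times the median in Prom1+ cells and 110 times in Prom1- cells, a log2 ratio of -0.09. Its other 3 probe sets had 76.2, 58.2 and 8.79 times the median in Prom1+ cells, against 81.5, 71.0 and 5.45 times in Prom1- cells. *Timp3* therefore differed by less than the SD between probe sets on 3 of its 4 probe sets and by 0.69 on the log2 scale on the dimmest.

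*Timp2*, which besides inhibiting MMPs takes part in the activation of pro-MMP2 on the cell surface, had 24.7 times the median in Prom1+ cells and 28.4 times in Prom1- cells by the probe set that stands for it, a log2 ratio of -0.20. The other probe sets of *Timp2* did not read alike. One had 5.27 times in Prom1+ cells against 19.7 times in Prom1- cells and was 3.73-fold lower. Another had 6.03 times against 8.97 times and was 1.49-fold lower. The remaining 3 were under the floor on 1 or both arrays. The 3 above it on both were all lower in Prom1+ cells, by sizes that no single value describes. The direction of *Timp2* and *Timp3* against 0 turned with the scaling. With the hybridization controls set equal, a choice made after seeing the data, their log2 ratios were 0.82 and 0.93. With both arrays scaled to the same trimmed mean they were -0.75 and -0.64, and with loess correction -0.98 and -0.20. The log2 ratio of *Timp2* was above 0 under 1 of 11 alternatives and that of *Timp3* under 2 of 11.

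*Timp1*, the inhibitor induced by inflammatory cytokines, did not reach the floor on either array, at 0.530 times the median in Prom1+ cells and 0.213 times in Prom1- cells. *Timp4* had 1.56 and 0.228 times in Prom1+ and Prom1- cells, and no fold is given for either.

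**Figure D1:**
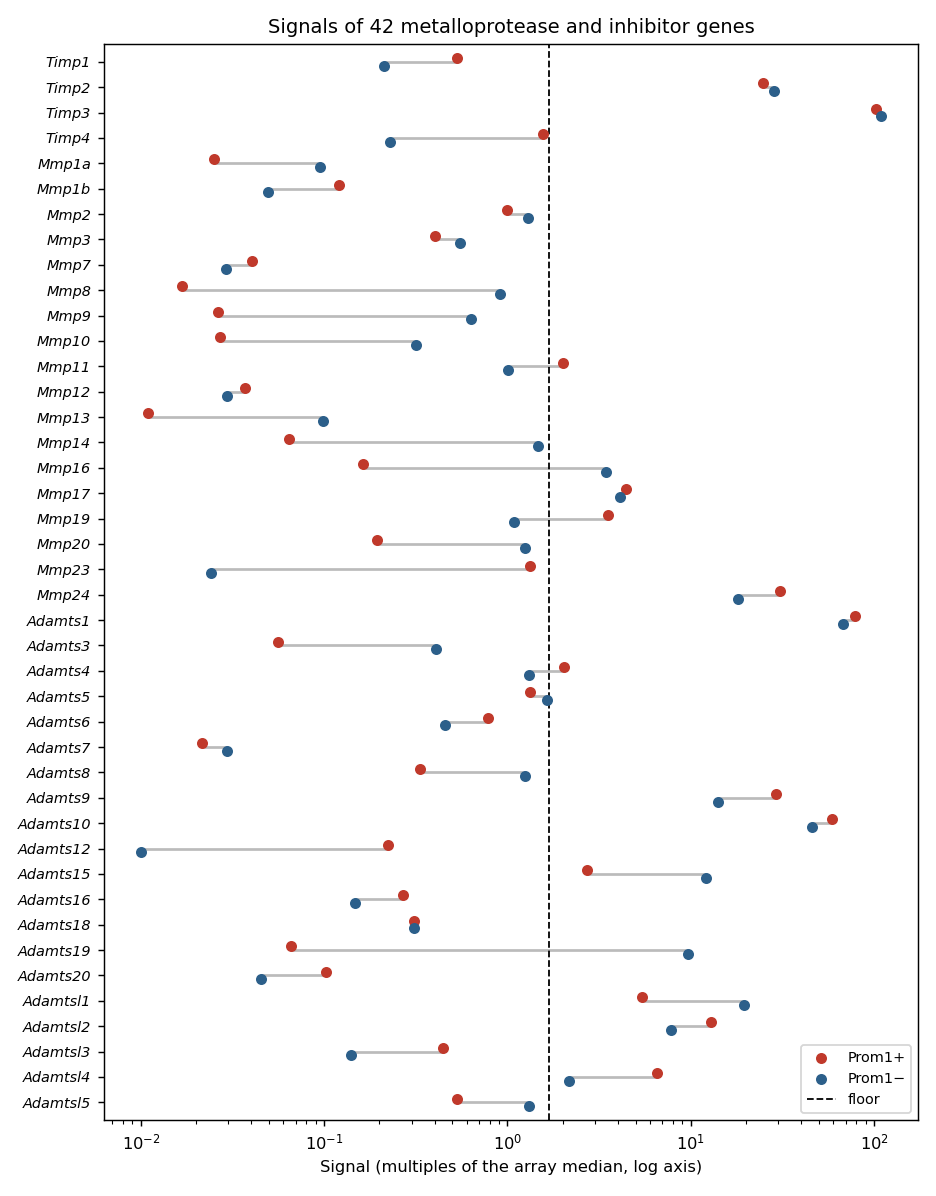
Signal of each of the 42 genes in the array labelled Prom1+ (red) and in the array labelled Prom1- (blue), in multiples of the array median on a log axis, with the floor of 1.67 as a dashed line. Of the 42 genes 26 lie left of the line on both arrays, and 11 lie right of it on both.

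Among the membrane-type enzymes, *Mmp24* was measured on both arrays. It encodes MT5-MMP, which is known mainly from the nervous system. *Mmp24* had 30.6 times the median in Prom1+ cells and 18.1 times in Prom1- cells, 1.69-fold higher, while its other 2 probe sets were under the floor on both arrays. The GPI-anchored MT4-MMP, encoded by *Mmp17*, had 4.43 times in Prom1+ cells and 4.10 times in Prom1- cells, a log2 ratio of 0.11. *Mmp16*, the gene of MT3-MMP, an activator of pro-MMP2, was measured in Prom1- cells alone. It had 0.164 times in Prom1+ cells, under the floor, and 3.43 times in Prom1- cells, and was at least 2.05-fold lower. This rests on 1 of 4 probe sets, since the other 3 were under the floor on both arrays. With a floor of 200 on the target scale the log2 ratio of *Mmp16* was -0.03. *Mmp14*, the gene of MT1-MMP and the best known membrane-type enzyme of sprouting endothelium, stayed under the floor at 0.0641 times in Prom1+ cells and 1.48 times in Prom1- cells. *Mmp23* had 1.33 and 0.0241 times in Prom1+ and Prom1- cells.

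The secreted MMPs were largely under the floor. Both gelatinases, which degrade type IV collagen and are the MMPs most often tied to leakage of brain vessels, were among them. *Mmp2* had 1.00 times the median in Prom1+ cells and 1.30 times in Prom1- cells, and *Mmp9* had 0.0264 and 0.636 times in Prom1+ and Prom1- cells. All 8 measured genes of a neutrophil marker list, cells that store MMP8 and MMP9, were also under the floor on both arrays. The 4 collagenases, *Mmp1a*, *Mmp1b*, *Mmp8* and *Mmp13*, summed to 0.173 times in Prom1+ cells and 1.15 times in Prom1- cells. Over the 9 genes of the cluster the signals ran from 0.0109 to 0.401 times in Prom1+ cells and from 0.0292 to 1.24 times in Prom1- cells. The control probe sets for *Bacillus* genes, which match no mouse transcript, reached 0.234 times in Prom1+ cells and 0.276 times in Prom1- cells. Of all 26 genes under the floor on both arrays, 14 were at or under the highest of these controls in Prom1+ cells and 13 in Prom1- cells.

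*Mmp19* and *Mmp11* were the exceptions among the secreted MMPs. *Mmp19*, whose enzyme cuts basement membrane proteins, had 3.53 times the median in Prom1+ cells and 1.09 times, under the floor, in Prom1- cells. It was at least 2.11-fold higher by this probe set, and its other probe set was under the floor on both arrays. *Mmp11*, the gene of stromelysin-3, which is activated by furin before secretion, had 2.02 times in Prom1+ cells and 1.00 times in Prom1- cells, at least 1.20-fold higher. Both lie close to the floor. With a floor of 200 the log2 ratio of *Mmp19* was 0.07, and with a floor of 50 that of *Mmp11* was 1.01.

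The proteoglycan-cutting ADAMTS genes went both ways. *Adamts1* encodes a protease of versican and aggrecan that is also known as an inhibitor of angiogenesis. It had 78.8 times the median in Prom1+ cells and 68.1 times in Prom1- cells, a log2 ratio of 0.21 that is within the SD between probe sets. *Adamts9*, a protease of versican that is expressed in endothelium, had 29.1 times in Prom1+ cells and 14.1 times in Prom1- cells and was 2.07-fold higher. Its second probe set had 2.81 times against 1.91 times and was 1.47-fold higher, and the third was under the floor on both arrays. *Adamts15*, another protease of versican, had 2.73 times in Prom1+ cells and 12.1 times in Prom1- cells and was 4.44-fold lower, by its only probe set. *Adamts4*, an aggrecanase, was at least 1.22-fold higher, at 2.04 times in Prom1+ cells and 1.32 times, under the floor, in Prom1- cells. *Adamts5*, also an aggrecanase gene, lay just under the floor on both arrays, with 1.32 and 1.65 times in Prom1+ and Prom1- cells.

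Of the other ADAMTS genes 2 were above the floor. *Adamts10* encodes a protease that associates with fibrillin microfibrils. It had 58.9 times the median in Prom1+ cells and 45.9 times in Prom1- cells, a log2 ratio of 0.36, and its second probe set had 3.41 times in Prom1+ cells and 1.58 times, under the floor, in Prom1- cells, at least 2.03-fold higher. *Adamts19*, a protease whose substrates are poorly known and which is needed for the heart valves, had 0.0656 times in Prom1+ cells, a level within the range of the *Bacillus* controls. In Prom1- cells it had 9.60 times. It was at least 5.73-fold lower, by its only probe set. *Adamts3*, which encodes a procollagen N-proteinase, was under the floor on both arrays, as were *Adamts6*, *Adamts7*, *Adamts8*, *Adamts12*, *Adamts16*, *Adamts18* and *Adamts20*.

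Of the ADAMTS-like genes 3 were above the floor on both arrays. *Adamtsl4*, whose product binds fibrillin-1 and is needed to anchor the lens, had 6.53 times the median in Prom1+ cells and 2.17 times in Prom1- cells and was 3.01-fold higher. *Adamtsl2*, whose product binds latent TGF-beta binding protein 1, had 12.9 times in Prom1+ cells and 7.76 times in Prom1- cells and was 1.66-fold higher. *Adamtsl1*, the gene of the matrix protein punctin, had 5.41 times in Prom1+ cells and 19.6 times in Prom1- cells and was 3.62-fold lower, while its other 2 probe sets were under the floor on both arrays. *Adamtsl3* and *Adamtsl5* were under the floor on both arrays.

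**Figure D2:**
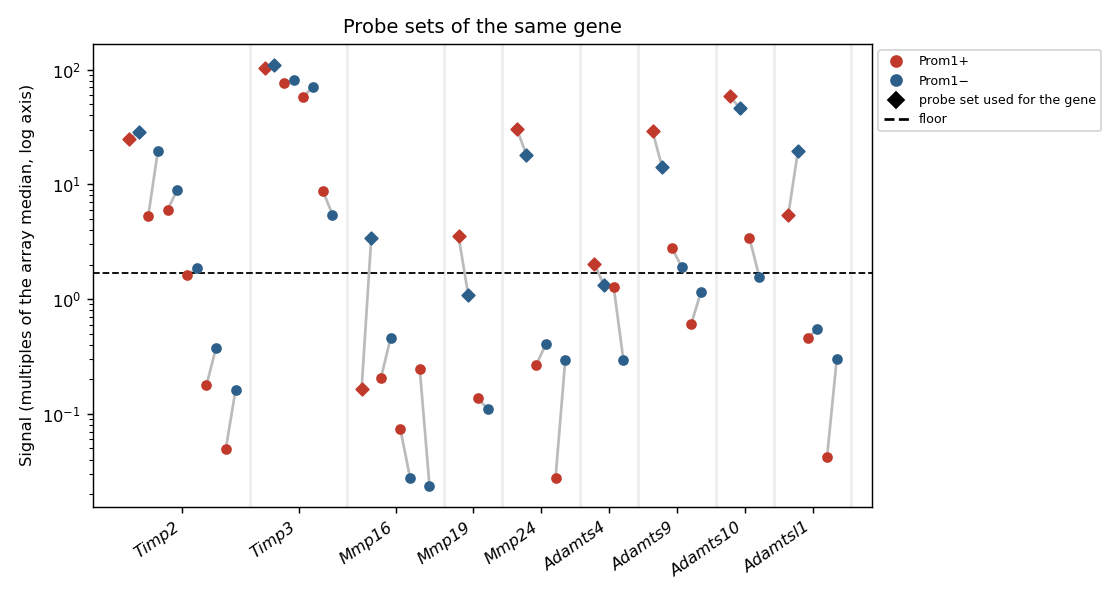
Signals of every probe set of the 9 genes that have more than 1 and were above the floor on at least 1 array, with Prom1+ (red) left of Prom1- (blue), in multiples of the array median on a log axis. Diamonds mark the probe set that stands for the gene and the dashed line is the floor of 1.67. The 3 probe sets of *Timp2* above the line on both arrays slope the same way by different sizes, and those of *Mmp24* and *Adamtsl1* besides the diamonds lie under the line.

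In all, 3 of the 42 genes were higher in Prom1+ cells by 2-fold or more (*Adamtsl4*, *Adamts9* and *Mmp19*) and 4 were at least 2-fold lower (*Adamts15*, *Adamts19*, *Adamtsl1* and *Mmp16*). These are 7.14% and 9.52% of the members, where 16.7% of all genes were higher and 2.83% lower. Among genes above the floor on both arrays, 2 of 11 members were higher and 2 of 11 lower, where 29.0% of all such genes were higher and 3.12% lower. These 11 had log2 ratios with a median of 0.21 and a range of -2.15 to 1.59, beside 0.69 over the 9360 genes above the floor on both arrays. With so few members no share is precise.

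Genes of different signal shifted by different amounts between the arrays, and the members are read against genes of like signal. At a mean log2 signal of 4 to 5, where *Adamts9*, *Mmp24* and *Timp2* lie, the median log2 ratio of 2116 genes was 0.84 and 34.7% of them were at least 2-fold higher. At 1 to 2, where *Adamtsl4* lies, 28.1% of 747 genes were higher. *Adamts15*, at 2 to 3, and *Adamtsl1*, at 3 to 4, lie where 6.15% of 1609 and 3.76% of 2022 genes were at least 2-fold lower. After loess correction of this shift, 0 members were at least 2-fold higher, where 2.83% of all genes were, and the same 4 were lower, where 4.85% of all genes were. *Adamtsl4* was then 1.80-fold, *Mmp19* 1.91-fold and *Adamts9* 1.15-fold higher, and *Adamts15* was 8.14-fold, *Adamtsl1* 6.78-fold and *Adamts19* at least 7.51-fold lower. The split of 3 higher and 4 lower was 1 and 4 with both arrays scaled to the same trimmed mean or quantile normalized, and 8 and 2 with the hybridization controls set equal. Over the scalings the median of all genes above the floor on both arrays ran from 0.03 with loess to 1.70 with the hybridization controls.

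**Figure D3:**
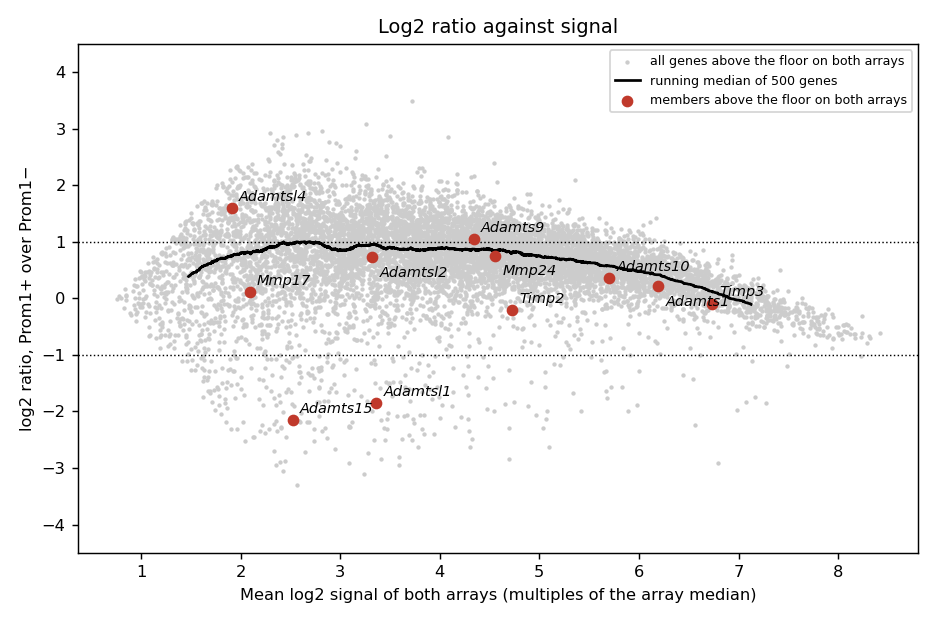
Log2 ratio of Prom1+ over Prom1- against the mean log2 signal of both arrays, for the genes above the floor on both (grey), their running median over 500 genes (black) and the 11 members among them (red, named). Dotted lines mark 2-fold. *Adamts15* and *Adamtsl1* lie far below the running median, and *Adamts1*, *Adamts10* and *Mmp24* lie close to it.

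Many markers of pericytes and smooth muscle, of fibroblasts and meninges, and of microglia were also lower in Prom1+ cells. The counts below stand beside 16.7% of all genes at least 2-fold higher and 2.83% lower. Among genes above the floor on both arrays these shares were 29.0% and 3.12%. Of 15 pericyte and smooth muscle markers 12 were at least 2-fold lower and none higher, with summed signals of 564 times the median in Prom1+ cells and 1610 times in Prom1- cells, and none was under the floor on both arrays. *Acta2*, a contractile gene of smooth muscle, had 81.6 and 295 times in Prom1+ and Prom1- cells. Of 12 fibroblast and meningeal markers 7 were lower and none higher, with sums of 74.8 times in Prom1+ cells and 419 times in Prom1- cells, and *Dpt* and *Lum* were under the floor on both arrays. *Ptgds*, an enzyme of prostaglandin D synthesis that the meninges express, had 40.3 times in Prom1+ cells against 305 times in Prom1- cells. Of 14 microglia and macrophage markers 10 were lower and none higher, with sums of 150 times in Prom1+ cells and 342 times in Prom1- cells, and *Itgam* did not reach the floor on either array. *Myl9* and *Rgs5*, also of smooth muscle and pericytes, had 78.2 and 95.9 times in Prom1+ cells, against 263 and 206 times in Prom1- cells, and the microglial genes *C1qb* and *Csf1r* had 31.8 and 33.6 times, against 78.7 and 71.5 times. Among the lists of other brain cells, those of astrocytes and oligodendrocytes went both ways. Of 10 astrocyte markers 2 were higher and 1 lower, and of 9 oligodendrocyte markers 1 was higher and 2 lower. Of 10 neuron markers 3 were lower and none higher, and of 8 ependyma and choroid plexus markers 2 were lower and none higher. The summed signals of these 4 lists were 131, 218, 82.8 and 282 times the median in Prom1+ cells, against 119, 441, 72.0 and 491 times in Prom1- cells. The neuron sum was carried by *Stmn2*, at 79.5 times in Prom1+ cells and 45.1 times in Prom1- cells, and without it the other 9 genes summed to 3.21 and 26.9 times in Prom1+ and Prom1- cells. Without its brightest gene, *Gja1*, the astrocyte sum was 46.6 times in Prom1+ cells and 51.8 times in Prom1- cells. Transcripts of these cells were present. The myelin genes *Mbp* and *Mobp* had 119 and 56.9 times in Prom1+ cells, against 271 and 153 times in Prom1- cells, while *Cnp*, also of myelin, was 2.84-fold higher. The choroid plexus gene *Ttr* had 210 times in Prom1+ cells and 426 times in Prom1- cells, and without it the ependyma and choroid plexus sums were 72.1 and 65.6 times in Prom1+ and Prom1- cells. The astrocyte gene *S100b* had 3.11 times in Prom1+ cells and 15.9 times in Prom1- cells, and the synaptic gene *Syt1* had 0.0152 times in Prom1+ cells, under the floor, and 10.2 times in Prom1- cells. Of these 4 lists 3, 4, 5 and 4 genes were under the floor on both arrays, among them *Gfap*, *Sox10*, *Rbfox3* and *Foxj1*. The 14 pan-endothelial markers were all above the floor, 1 higher and none lower, with sums of 1747 times in Prom1+ cells and 1825 times in Prom1- cells. In RNA of sorted populations, fewer cells of a type and less RNA per cell cannot be told apart. The part of other cell types in the values of *Adamts15*, *Adamts19*, *Adamtsl1* and *Mmp16* was not tested.

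**Figure D4:**
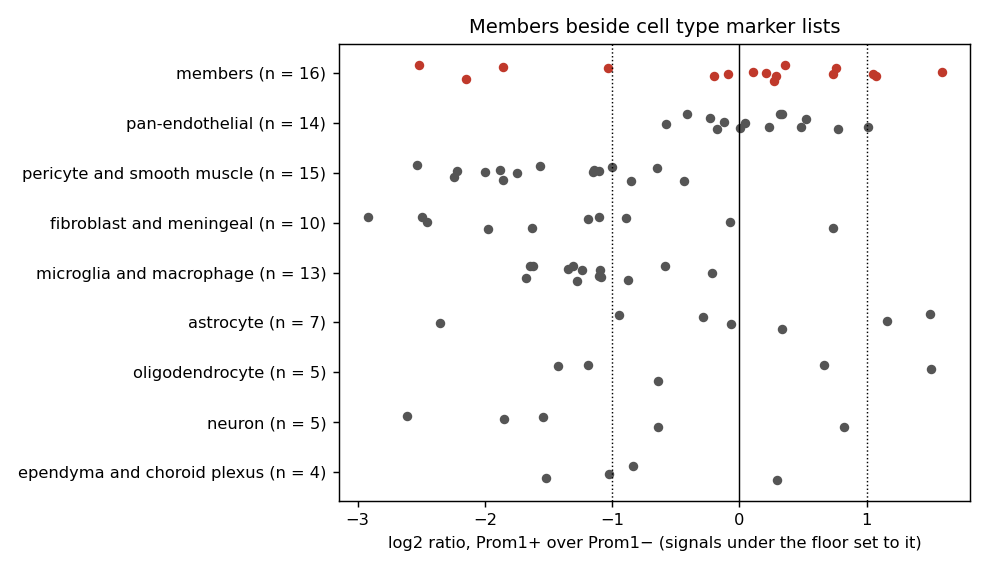
Log2 ratio of Prom1+ over Prom1- for the 16 members above the floor on at least 1 array (red) and for the genes of 8 cell type marker lists (grey), with signals under the floor set to it. Dotted lines mark 2-fold. The pan-endothelial genes lie around 0, the pericyte and smooth muscle, fibroblast and microglia genes lie mostly left of the 2-fold line, and the members lie on both sides.

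Genes that switch metalloproteases on or off were taken as a list of 23, of which 21 were measured as probe sets. Of these 4 were at least 2-fold higher, 1 lower and 11 differed by less, and 5 were under the floor on both arrays. The share higher is near the 16.7% of all genes, and 2.83% of all genes were lower. The log2 ratio had a median of 0.05 over the 12 above the floor on both arrays, beside 0.69 over all genes. Basigin (*Bsg*), the surface protein that induces MMPs in neighboring cells, had 238 times the median in Prom1+ cells and 380 times in Prom1- cells, 1.60-fold lower. *Sparc*, a matrix protein that alters cell adhesion, had 226 and 315 times in Prom1+ and Prom1- cells, and the crosslinking enzyme *Tgm2* had 152 and 158 times.

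The 4 higher genes were *Plaur*, *Tfpi2*, *Lcn2* and *Pcsk5*. *Plaur*, the urokinase receptor, had 12.5 times the median in Prom1+ cells and 4.35 times in Prom1- cells and was 2.87-fold higher, while its ligand *Plau* did not reach the floor on either array. *Tfpi2*, a protease inhibitor that protects matrix, was 2.51-fold higher, at 4.55 times in Prom1+ cells and 1.81 times in Prom1- cells. *Lcn2*, which encodes a secreted carrier of bacterial siderophores that also associates with MMP9, was at least 4.90-fold higher, at 8.21 times against 0.0118 times. *Mmp9* itself, as given above, did not reach the floor. The proprotein convertase *Pcsk5* was at least 2.04-fold higher at 3.41 times against 1.31 times. *Lrp1*, the receptor that clears proteases and their inhibitors from the surface, was 3.69-fold lower, at 2.66 times in Prom1+ cells and 9.80 times in Prom1- cells.

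Of 12 ADAM genes, whose products are membrane-bound relatives of the ADAMTS proteases, none was 2-fold higher or lower. Of these 12 genes 5 were under the floor on both arrays. Over all genes 16.7% were higher and 2.83% lower. *Adam10*, which releases Notch and cadherin ectodomains, had 101 times the median in Prom1+ cells and 89.9 times in Prom1- cells. *Adam17*, which releases TNF and ligands of the EGF receptor, had 70.6 times in Prom1+ cells and 36.2 times in Prom1- cells, 1.95-fold higher, and *Adam15* had 66.5 and 51.0 times in Prom1+ and Prom1- cells. Over the 5 above the floor on both arrays the log2 ratio had a median of 0.32, beside 0.69 over all such genes.

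The substrates were measured as a list of 24 matrix genes, of which 23 were on the array. Of these 1 was at least 2-fold higher, 2 lower and 13 differed by less, where 16.7% of all genes were higher and 2.83% lower. The median log2 ratio was 0.18 over the 13 above the floor on both arrays, beside 0.69 over all such genes. Fibronectin and type IV collagen of the basement membrane hardly differed. *Fn1* had 153 times the median in Prom1+ cells and 162 times in Prom1- cells, *Col4a1* had 149 and 140 times and *Col4a2* 138 and 122 times in Prom1+ and Prom1- cells. Nidogen 2 (*Nid2*), which links laminin and collagen networks, was 2.36-fold higher, at 13.3 times in Prom1+ cells and 5.65 times in Prom1- cells, and the laminin chain *Lama4* was 1.95-fold higher. *Col1a2*, a fibrillar collagen gene, was 5.49-fold lower, at 2.35 times in Prom1+ cells and 12.9 times in Prom1- cells. *Col1a2* also stands in the fibroblast and meningeal list, as does *Col3a1*, which was 1.85-fold lower. The second gene called lower was the link protein *Hapln1*. The proteoglycan genes *Vcan*, *Acan*, *Bcan* and *Ncan*, the best known substrates of ADAMTS proteases, were under the floor on both arrays.

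Lysosomal cathepsins and their inhibitors, a protease system outside the metalloproteases, were listed for comparison. Of 10 genes none was 2-fold higher and 1 was lower, where 16.7% of all genes were higher and 2.83% lower. The log2 ratio had a median of 0.19 over 8 genes above the floor on both arrays, beside 0.69 over all such genes. Cystatin C (*Cst3*), the main secreted inhibitor of cathepsins, had 181 times the median in Prom1+ cells and 333 times in Prom1- cells, 1.84-fold lower. *Cstb* had 134 and 132 times, and *Ctsh* had 119 and 97.5 times, in Prom1+ and Prom1- cells. *Ctsl* was 1.46-fold and *Ctsb* 1.30-fold higher. *Ctss*, a cathepsin of microglia, was 2.42-fold lower, at 32.6 times in Prom1+ cells and 79.1 times in Prom1- cells, and it also stands in the microglia and macrophage list.

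**Figure D5:**
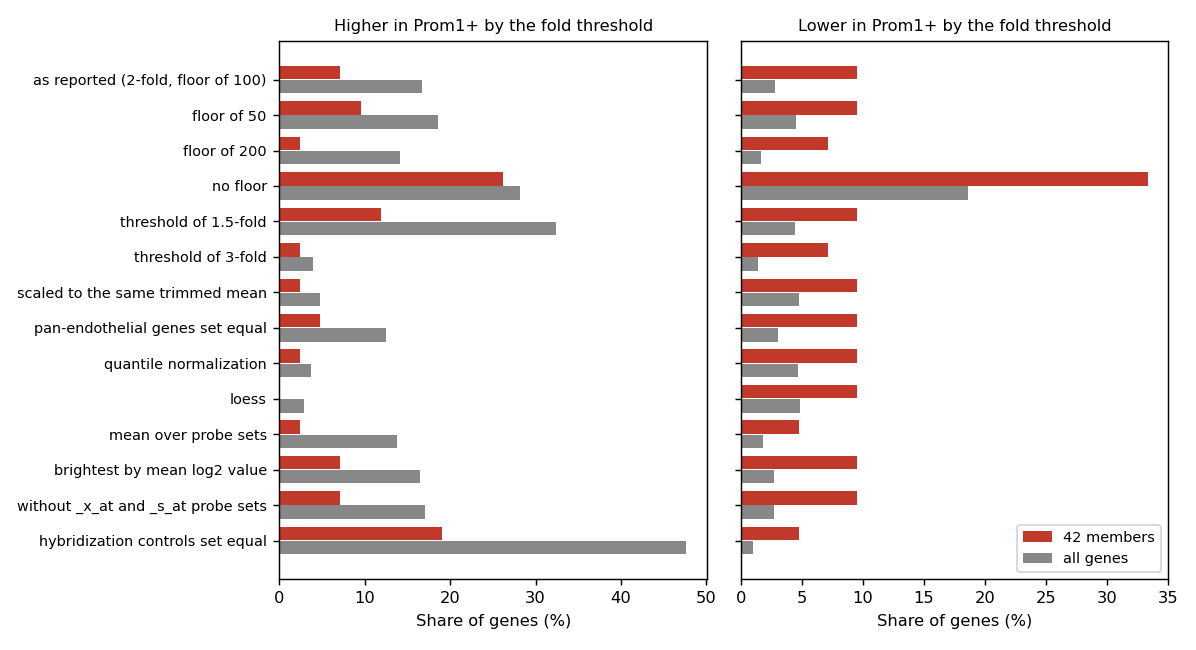
Share of genes at or past the fold threshold, higher (left) and lower (right) in the array labelled Prom1+, for the 42 members (red) and all genes (grey), as reported and under each alternative on the vertical axis. The share of members that were higher lies below that of all genes under every setting drawn, and the share of members that were lower lies above it.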

How the data were processed

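RNA of 1 sorted population was hybridized to each of 2 Affymetrix mouse arrays. Per the labels and the study's methods, the authors amplified and biotinylated the RNA, computed MAS5 signals, scaled each array to a target of 500 and used GeneSpring for normalization. The sources used here give neither a version of MAS5 nor detection calls. What they deposited is the log2 ratio of each signal to its array's median, which centers both columns on 0, with a lowest value of -6.64.

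Values were converted to linear multiples of the median. On the scale of the target the floor was 100, which becomes 1.67 times the median when both 2% trimmed means are averaged. Of the 45101 probe sets, 44.6% reached it in the array labelled Prom1+ and 42.9% in the array labelled Prom1-. The number of arrays limits the precision. Gene names came from the platform annotation, which gives 34958 a single gene symbol, 932 several and does not list 9211. The identifiers of 34754 were found in a GRCm38.p6 gene table, used for current symbols and for neighbors. The probe set with the highest mean of both linear signals stood for a gene. Genes at least 2-fold different between floored signals were counted, and every member above the floor on at least 1 array is named with its signals. From each pathway list the 3 genes with the highest signal and the 2 with the largest log2 ratio each way are named, and any other was chosen after its values were seen. The members, lists and motifs were chosen with earlier results of these data known. Alternatives were floors of 50, 200 and none, thresholds of 1.5-fold and 3-fold, 4 scalings, loess with a span of 0.2 among them, and 3 choices of probe sets. Setting the hybridization controls equal was added after seeing the data. The rules were tested on simulated data, with mean signals above the floor and less noise than the SD between probe sets. That test does not cover calls near the floor. The software was matplotlib 3.10.9, statsmodels 0.14.6, pandas 2.3.3 and numpy 2.4.6, run in Python 3.11.15.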

Additional observations from a re-analysis of the deposited data

How the results depend on the processing

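No paired analysis was possible because each population had 1 array, and no array could be left out. The count of members at least 2-fold higher, 3 as reported, was 1 with a floor of 200, 11 with no floor, 5 at 1.5-fold and 1 at 3-fold. It was 1 with the same trimmed mean, 1 with quantile normalization, 0 with loess, 1 with the mean over probe sets and 8 after equalizing the hybridization controls. The count lower, 4 as reported, was 14 with no floor, 2 with the mean over probe sets and 2 after equalizing these controls. The median log2 ratio of the members above the floor on both arrays, 0.21 as reported, was -0.33 with the same trimmed mean and 1.18 after equalizing them. Signals without a floor lie in the range of the background controls for many members, and averaging probe sets brings in those under the floor. The counts at 1.5-fold and 3-fold follow from the threshold itself. The cause of the other changes was not tested. *Adamts15* and *Adamts19* were at least 2-fold lower under all 11 alternatives that give a ratio. *Adamtsl4* was higher by at least 2-fold under 9 of 11, *Adamts9* and *Mmp19* under 6 of 11 and 6 of 10. No called ratio changed sign.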
